A study of Mus musculus with 12 samples.

Results

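Glomeruli of untreated control mice were profiled in 3 libraries of the 12 in the series, 1 library from each of 3 mice. The 3 libraries were taken because their labels give control genotype and no treatment. The series sequenced total RNA of isolated glomeruli in 4 groups of 3 mice: podocyte-specific DACH1 knockout mice and control mice at baseline, and both genotypes after injection of streptozotocin (STZ). The mice described here were C57BL/6 controls, 10 weeks old, with no injection. The labels give no sex, Cre driver or floxed allele for them, so "control" is not defined further. The glomeruli had been collected with magnetic beads after perfusion through the heart, which retains capillary tufts together with whatever vessel and tubule fragments stay attached. No group was compared with another, so no test was made and every value below is a description of these 3 libraries.

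The glomerulus is the filter of the kidney. Its capillaries are lined by fenestrated endothelium, share a basement membrane with podocytes, whose interdigitating foot processes are bridged by the slit diaphragm, and are held together by mesangial cells. Podocytes supply the endothelium with vascular endothelial growth factor and do not normally divide, and the tubule downstream recovers what was filtered.

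The deposited values were estimated counts for 13480 gene symbols. The libraries held 23305198, 24925846.5 and 23825172.5 counts in replicates 1, 2 and 3, and values of single libraries are given in that order throughout. Counts per 1000000 of the library total (CPM) describe how the counts of a library were divided. Since a long transcript collects more counts than a short one, levels of different genes were compared only as length-scaled levels, which are counts per kilobase of exon rescaled to a sum of 1000000 in each library and given in parts of that sum (ppm). Means are given with the SD over the 3 libraries. With this depth the widest 95% Wilson interval of a list's share was 0.00805 percentage points to either side. Such intervals cover counting error only, as PCR copies of 1 molecule could not be told apart here. In bulk tissue, fewer cells of a type and less RNA per cell cannot be told apart.

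The counts were led by genes of the podocyte and of the glomerular endothelium. Podxl, which encodes the sialoglycoprotein podocalyxin of the podocyte surface, took most counts, at 12642, 9426 and 11352 CPM. Also among the leading genes were Igfbp5, which encodes an insulin-like growth factor binding protein, at 7187, 8707 and 7641 CPM, and Plat, which encodes tissue plasminogen activator, at 6995, 5777 and 4425 CPM. Podxl and Plat were highest in replicate 1 and Igfbp5 in replicate 2. Podxl lies on chromosome 6 (chr6:31519488-31563981, GRCm38), Igfbp5 on chromosome 1 (chr1:72857932-72874884) and Plat on chromosome 8 (chr8:22757727-22782844).

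Of the 30 genes with most counts, 4 belonged to the podocyte marker list, among them Podxl, Sema3g and Nphs1, and 3 to the endothelial list (Plat, Ehd3 and Kdr). None belonged to the lists for mesangium, parietal epithelium, tubule, blood or other cells. Timp3, an inhibitor of metalloproteinases that binds to matrix, had 4557 ± 321 CPM. Sparc, a matricellular protein, had 3563 ± 1102 CPM, Ctgf, a secreted matrix-associated protein, 2895 ± 536 CPM, and Igfbp7, a further secreted binding protein, 2889 ± 172 CPM. Clic5, an intracellular chloride channel protein that binds the ezrin complex of podocytes, had 2480 ± 345 CPM, and Enpep, the aminopeptidase that converts angiotensin II, had 2333 ± 426 CPM. Epas1, a hypoxia-inducible transcription factor, was the only transcription factor among the 30, at 1855 ± 126 CPM. App and Itm2b, both transmembrane proteins known from amyloid disease, had 3222 ± 104 CPM and 3924 ± 599.6 CPM. Other members were Eef1a1, Hspa8, Hsp90ab1, Actb, Tmsb4x, Gnas, Itgb1, Nrp1, Serinc3, Tns3, Gpx3 and Col4a1.

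**Figure D1:**
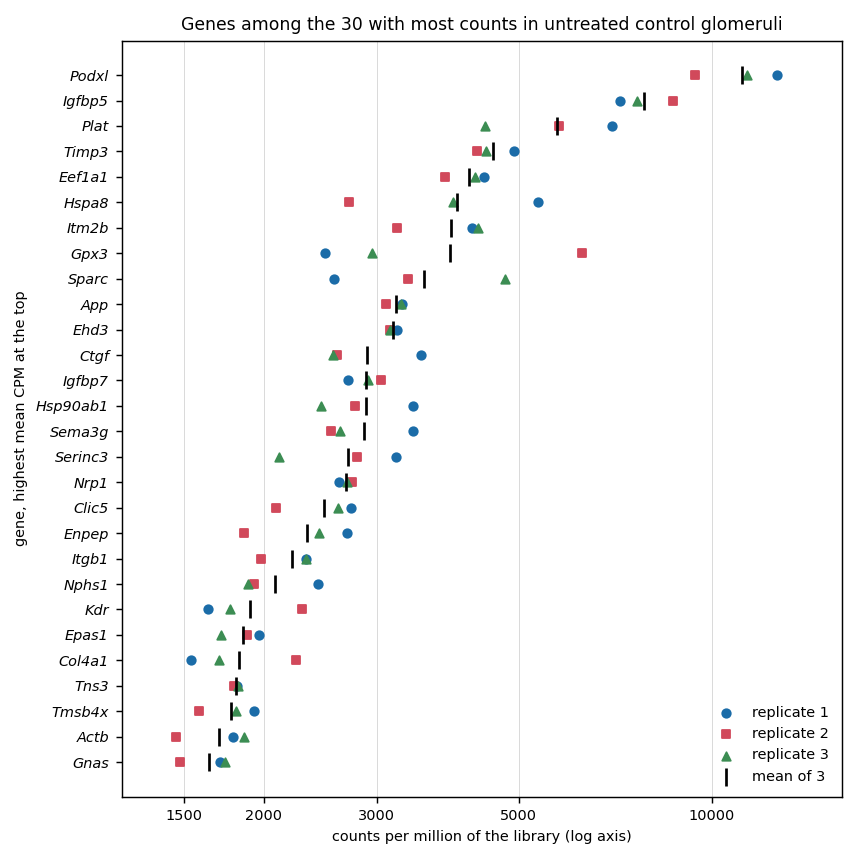
CPM (log axis) of genes among the 30 with highest mean CPM, with 1 point for each of the 3 untreated control libraries and a bar at their mean. Podxl lies to the right of the others in each library, Ehd3, App, Nrp1 and Tns3 lie within 1.06-fold between libraries, and Gpx3 and Hspa8 spread by 2.52-fold and 1.97-fold.

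The spread between libraries differed from gene to gene even at this depth. Ehd3, an endocytic protein of the glomerular endothelium, had 3229, 3150 and 3151 CPM, and Tns3, a focal adhesion protein, had 1814, 1797 and 1822 CPM, so that the highest library exceeded the lowest by 1.03-fold and 1.01-fold. Gpx3, a glutathione peroxidase that the kidney secretes, had 2495, 6286 and 2952 CPM, highest in replicate 2 by 2.52-fold over the lowest library. Hspa8, the constitutive HSC70 chaperone, had 5352, 2721 and 3945 CPM and was lowest in replicate 2. Sparc had 2578, 3359.9 and 4752 CPM and was highest in replicate 3.

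The profile was spread over many genes. The 10 genes of highest mean CPM took 5.67 ± 0.253% of the counts, the 30 top genes 10.4 ± 0.474%, the 100 top genes 18.2 ± 0.666% and the 1000 top genes 48.9 ± 1.2%. Podxl alone took 1.26, 0.943 and 1.14% of the counts. Of all 13480 genes, 74 reached a mean of 1000 CPM, 2425 reached 100 CPM and 10122 reached 10 CPM, and the median gene had 28 CPM. Only 35 averaged below 1 CPM. Shares of all genes in this report are shares of these listed genes, not of every annotated gene. No mitochondrially encoded gene is among the symbols used here, so that class is not part of these totals. Protein-coding genes made up 97.6% of the genes with an annotated type.

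Scaled to exon length, the leading genes changed order, and 18 of the 30 top genes by CPM stayed among the 30 top genes. Among the leading genes on this scale, Gpx3 had 4559, 11435 and 5322 ppm and Igfbp7 6526, 7316 and 6909.5 ppm. Eef1a1, the translation elongation factor, had 7178, 6190.4 and 6844 ppm, Plat had 8069.5, 6634 and 5036 ppm and Podxl had 6845, 5081 and 6065 ppm. The ranges over the 3 libraries of these 5 genes overlapped. Within each library Eef1a1 was above Podxl. Short transcripts entered the 20 top genes on this scale, among them Tmsb4x (thymosin β, which binds actin monomers), Ftl1 (ferritin light chain), Tpt1, Ptma and B2m. Kap, the androgen-responsive kidney protein of proximal tubules, was among them through replicate 3: it had 1140, 747 and 9367 ppm.

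The marker lists of the cell types of the tuft were listed in full. All 33 podocyte markers, all 26 endothelial markers and all 13 mesangial markers were present. Every one of them averaged above 10 CPM, beside 75.1% of all genes, and R3hdml of the podocyte list did so through replicate 3 alone. Podocyte markers took 4.15, 3.23 and 3.92% of the counts, endothelial markers 2.21, 2.14 and 1.94% and mesangial markers 0.449, 0.537 and 0.405%. The median length-scaled level was 220.2 ppm over the podocyte list, 342 over the endothelial list and 211 over the mesangial list, beside 24.8 over all genes. A share depends on which genes a list holds, so these shares are not proportions of cells. Podxl alone made up 29.6% of the podocyte share and Plat 27.4% of the endothelial share. The podocyte share was 1.88, 1.51 and 2.02 times the endothelial one in the 3 libraries by counts and 1.4, 1.15 and 1.64 times by length-scaled levels.

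**Figure D2:**
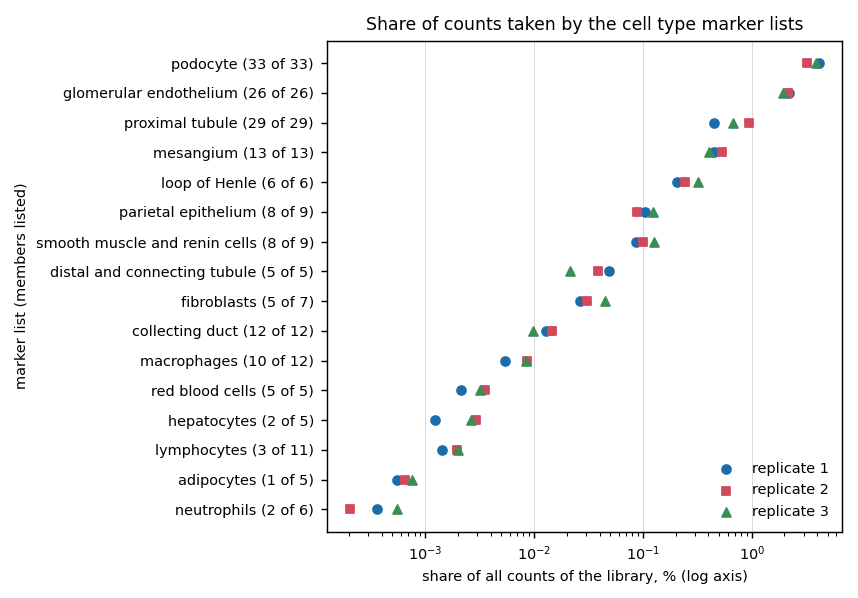
Share of all counts of a library (%, log axis) taken by each of 16 cell type marker lists, with 1 point per untreated control library and the number of listed members in brackets. Podocyte and endothelial lists lie at 1.94% or above in each library, the proximal tubule list spreads from 0.453 to 0.937%, and the blood cell lists lie at 0.00861% or below.

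Genes of the slit diaphragm, the cell junction that spans the filtration slits, covered a wide range of length-scaled levels. Nphs1, which encodes nephrin, the adhesion protein that spans the slit, averaged 1254 ± 187 ppm. Ptpro, a receptor tyrosine phosphatase of the podocyte surface, had 602 ± 81.8 ppm. Tjp1 (ZO-1, a junction scaffold) had 367 ± 43.8, Myo1e (an unconventional myosin) 320.1 ± 38.8 and Cd2ap (an adaptor that links nephrin to actin) 211 ± 14 ppm. Kirrel, a nephrin-related adhesion protein, had 120.3 ± 29.5 ppm, Fat1, a giant protocadherin, 97.7 ± 6.58, and the adaptors Nck2 and Nck1 112 ± 8.31 and 42.8 ± 2.29. Magi2, a scaffold protein, had 40.4 ± 9.75 ppm. The cation channel gene Trpc6 had 6.94 ± 0.799 ppm and the nephrin relative Kirrel2 13 ± 0.763, while Kirrel3 is the 1 member of the 15 without an entry. None of the 14 listed members, each above 10 CPM on average, differed by over 2-fold between libraries. Such a difference was seen in 7.48% of all genes, in 5.78% of those at 10 to 100 CPM and in 3.66% at 100 to 1000 CPM. With these shares, none of 14 does not set the list apart from genes of similar counts.

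Nphs1 and Kirrel2 are neighbours that are transcribed away from each other on chromosome 7 (chr7:30458315-30487223 and chr7:30447534-30457690, GRCm38). The length-scaled level of Nphs1 exceeded that of Kirrel2 by 117, 84.1 and 90.2 times in the 3 libraries. Their CPM were 2428, 1933 and 1893 for Nphs1 and 14.4, 16 and 14.6 for Kirrel2.

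Other podocyte markers with high length-scaled levels were Sema3g, a secreted semaphorin, with 1828 ± 318 ppm, and Cdkn1c, the cyclin-dependent kinase inhibitor p57, with 1330 ± 138 ppm. Clic3, a chloride intracellular channel protein, had 834 ± 129 ppm, Htra1, a secreted serine protease, 795 ± 121, and Npnt, the integrin ligand nephronectin of the basement membrane, 696 ± 72. The intermediate filament gene Nes (nestin) had 412 ± 31.9 ppm and the actin-associated Synpo (synaptopodin) 316 ± 13.2. Lower levels were read for Plce1, a phospholipase C, with 112 ± 18.1 ppm, Robo2, a guidance receptor, with 111 ± 11.8, and the BMP ligand Bmp7 with 79.6 ± 34.7. Bmp7, at 149, 87.9 and 65.4 CPM, and R3hdml, described further on, were the 2 members of 33 whose highest library exceeded the lowest by over 2-fold, as did 7.48% of all genes.

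The list for the podocyte cytoskeleton and its anchors was led per length by Itgb1, the integrin β subunit that binds the basement membrane, with 1678 ± 150.2 ppm. Whole glomeruli were sequenced, so the levels of these genes cannot be credited to podocytes alone. Actn4, the actin crosslinker α-actinin, had 1056 ± 72.3 ppm, Slc9a3r2, a scaffold protein that binds podocalyxin, 1031 ± 44.1, and Arhgdia, an inhibitor of small GTPases, 776 ± 53.2. Itga3, the α partner of Itgb1 in podocytes, had 528 ± 72.1 ppm and the dystroglycan gene Dag1 574 ± 80.2. Far lower were Inf2, a formin, with 93.1 ± 22.3 ppm, and Anln, an actin-binding protein of dividing cells, with 7.55 ± 0.345. All 17 genes of this list were listed and none differed by over 2-fold between libraries. Such a difference was seen in 7.48% of all genes and in 3.66% of those at 100 to 1000 CPM. With these shares, none of 17 does not set the list apart.

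Transcription factors of the podocyte were all below Nphs1 and Ptpro per length. Wt1, the zinc finger factor required for podocyte differentiation, was highest with 410.1 ± 53.3 ppm (545, 436 and 449 CPM). Foxc2 had 141 ± 29.9 ppm (154, 101 and 142 CPM), Tcf21 124 ± 13 ppm, Foxc1 85.9 ± 6.23, Zbtb7c 68.6 ± 8.14 and Tead1 50.1 ± 5.93. Dach1, the gene deleted in the knockout mice of the series, had 160.2, 110.2 and 190.5 CPM and 85.2 ± 22.1 ppm, with its lowest value in replicate 2. Lmx1b, mutated in nail-patella syndrome, had 19.1 ± 2.71 ppm and Eya4 8.79 ± 0.724. Of the 15 factors in the list, Six2, a factor of nephron progenitors, is the 1 without an entry.

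The adult filtration barrier contains a collagen IV network of the α3, α4 and α5 chains, made by podocytes, beside the α1 and α2 chains of mesangium and endothelium. All 6 collagen IV genes were listed. Col4a1 had 679, 984 and 739 and Col4a2 466, 712 and 569.9 ppm, both highest in replicate 2. Col4a3 had 551, 537 and 521 ppm and was nearly the same in every library, with 1618, 1584 and 1552 CPM. Col4a4 had 182, 181 and 199.5, Col4a5 108, 123 and 158 and Col4a6 10.8, 9.97 and 12.4 ppm. Summed per length, Col4a3, Col4a4 and Col4a5 stood at 0.734, 0.496 and 0.671 times the sum of Col4a1 and Col4a2, lowest in replicate 2. Col4a3 exceeded Col4a4 by 3.03, 2.97 and 2.61 times and Col4a5 exceeded Col4a6 by 9.98, 12.4 and 12.7 times per length.

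Each of these pairs is encoded head to head. The annotated starts of Col4a1 and Col4a2 on chromosome 8 overlap by 22 bases, those of Col4a6 and Col4a5 on the X chromosome lie 1308 bases apart, and those of Col4a4 (minus strand) and Col4a3 (plus strand) on chromosome 1 lie 71 bases apart (GENCODE M21, GRCm38). The whole stretch between the Col4a4 and Col4a3 starts is shown because 2 genes with length-scaled levels that differed by 2.87 ± 0.224 times start at its ends. It is chr1:82586850-82586920 of GRCm38.p6, plus strand, 5′ to 3′, from the RefSeq promoter table, and overlaps no annotated exon:
Col4a4–Col4a3 interval: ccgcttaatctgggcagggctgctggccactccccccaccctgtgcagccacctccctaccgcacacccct
Its GC content was 69%. The letters TATAAA (the core of the TATA box) did not occur in it on either strand, nor did those of the GC box (written GGGCGG) or of the CCAAT box, which says only that these letters are not in this window.

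The same 3 motifs were counted on both strands in the 250 bases before the start in the RefSeq table, which holds 32851 promoters. Matches of different motifs can overlap on opposite strands and were counted separately. TATAAA occurred in 12.4% of all promoters, 6.97% of those of the listed genes, 16.2% of those of the 100 genes with most counts and in 0 of the 26 promoters found for 21 podocyte markers. GGGCGG occurred in 32.7% of all promoters, 55.6% of the listed genes', 58.6% of the top 100 genes' and 42.3% of the podocyte markers'. CCAAT occurred in 33.9, 35, 33.3 and 26.9% of the same 4 sets. Of the 100 genes, 76 had an entry, with 99 promoters between them.

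Laminins, the second network of the basement membrane, showed the chains of the adult laminin trimer (Lama5, Lamb2 and Lamc1) above their embryonic or alternative relatives. Lamb2 had 385, 335 and 322 ppm and Lamb1 103, 132 and 134. Lama5 had 88.7, 103 and 85.2 ppm and Lama1, the embryonic α chain, 1.81, 2.52 and 3.82. Per length, the ratio of Lamb2 to Lamb1 was 3.74, 2.53 and 2.4 in the 3 libraries, and that of Lama5 to Lama1 49, 40.8 and 22.3. With exons of the full annotation, the mean ratio of Lamb2 to Lamb1 was 4.54 in place of 2.89. Lamc1 had 133 ± 12.6 ppm and Lama4, an endothelial and mesangial α chain, 35.3 ± 2.6. The linker proteins Nid1 and Nid2 had 278 ± 44.1 and 116 ± 22.8 ppm, and the heparan sulfate proteoglycans Agrn (agrin) and Hspg2 (perlecan) 173 ± 7.1 and 102 ± 19.9. Lama2, Lama3, Lamb3 and Lamc3 averaged 10.9 ppm or less.

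**Figure D3:**
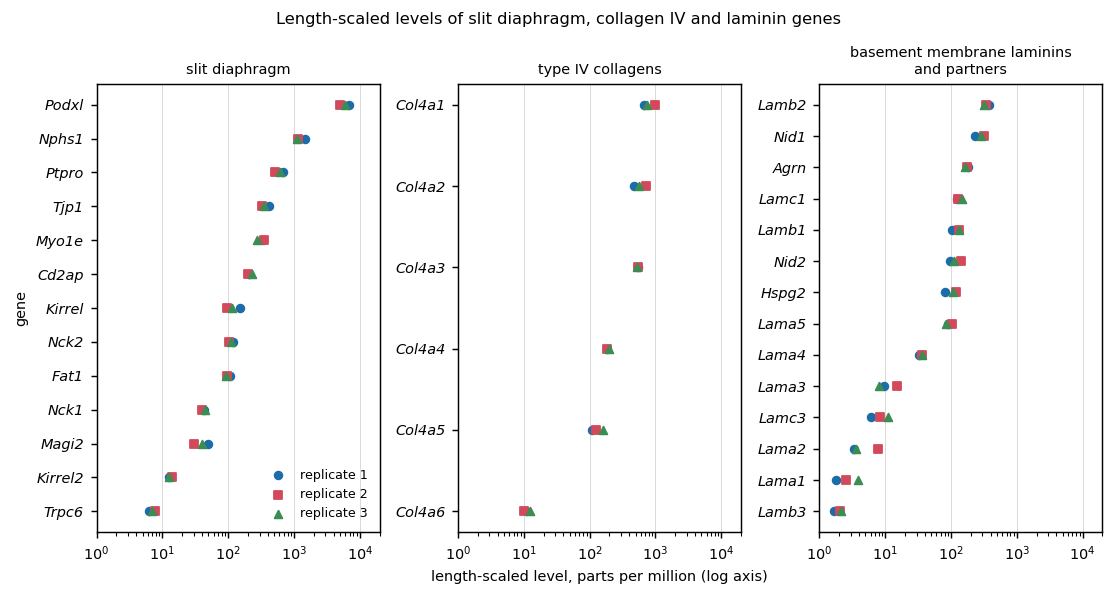
Length-scaled level (ppm, log axis) of slit diaphragm, collagen IV and laminin genes, with 1 point per untreated control library. Podxl lies at 5081 or above in each library, Col4a1 to Col4a3 between 466 and 984, and Lama1 and Lamb3 below 4.

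Endothelial genes were led per length by Plat with 8069.5, 6634 and 5036 and Ehd3 with 2570.5, 2496 and 2475 ppm. Emcn, the sialomucin endomucin, had 1547, 1556 and 1459.9 ppm, Eng, the TGF-β co-receptor endoglin, 767, 877 and 849.9, and Pecam1, the adhesion molecule CD31, 593, 644 and 579.9. Cdh5, the VE-cadherin of endothelial junctions, had 499, 555 and 547 ppm and Cldn5, a tight junction claudin, 559.9, 380.4 and 561. Egfl7, a secreted endothelial protein, was the 1 member of 26 with a range over 2-fold, at 167, 334 and 180.0 CPM, highest in replicate 2. Plvap, the diaphragm protein of fenestrae and caveolae, had 248 ± 29 ppm, Nos3, the endothelial nitric oxide synthase, 40.4 ± 9.05, and Sost, a secreted Wnt antagonist, 18.7 ± 2.52, the lowest of the list.

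Of the 13 genes of growth factor signalling between podocytes and endothelium, the receptors Nrp1 and Kdr had the highest length-scaled levels. The ligand Vegfa had 253, 209.5 and 197 ppm and its main signalling receptor Kdr 806, 1124 and 859.9, so that Vegfa stood at 0.315, 0.186 and 0.23 times Kdr per length. The co-receptor Nrp1 had 2126, 2216 and 2153 ppm, higher than Kdr in each library. Flt1, the decoy receptor, had 154, 146 and 157 ppm, and the ratio of Kdr to Flt1 was 5.25, 7.71 and 5.48 per length. With the longest transcript as the length of a gene, the mean of this last ratio was 3.87 in place of 6.15. The ligands Vegfb, Vegfc and Pgf had 36.3 ± 5.43, 13.5 ± 5.59 and 15.3 ± 4.11 ppm. Of the angiopoietin pathway, the receptor Tek had 333 ± 13.9 ppm, its relative Tie1 265 ± 6.5, the antagonist Angpt2 103 ± 6.21 and the agonist Angpt1 4.73 ± 0.602. The ratio of Angpt1 to Angpt2 per length was 0.0424, 0.0441 and 0.0517 in the 3 libraries.

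Mesangial markers were led per length by Serpine2, a serine protease inhibitor, with 1087 ± 67.2 ppm, Itga8, the integrin subunit that binds nephronectin, with 639.8 ± 107, Agtr1a, the angiotensin II receptor, with 410.0 ± 87, and Pdgfrb, the receptor for platelet-derived growth factor, with 406 ± 107. Pdgfrb had 643, 999 and 659 CPM, highest in replicate 2, as were 10 of the 13 members, beside 45.3% of all genes. After TMM scaling that library was highest in 9 of the 13, beside 37%. Gata3, a transcription factor of mesangial cells, had 206, 250.3 and 145 CPM.

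Markers of arterioles were present at lower shares. Ren1, which encodes renin of the juxtaglomerular cells, had 260.3, 441 and 546 CPM and made up 39.8% of the counts of its list. Acta2, smooth muscle actin, had 92.2, 96.2 and 125 CPM, Tagln 64.1, 67.1 and 139.6 CPM and Myh11, smooth muscle myosin, 65.8, 61.9 and 48.1 CPM. The list of 9 took 0.0864, 0.0997 and 0.127% of the counts, with Cnn1 without an entry. Of the 9 parietal epithelial markers, Cd24a made up 87.2% of the list's counts. Of the other members, Cldn1 had 37.6, 46.7 and 88.1 CPM, Pax8 14.2, 21.8 and 26.8 CPM, Krt8 8.28, 16.4 and 13.6 CPM and Pax2 4.16, 6.46 and 5.88 CPM.

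Tubule genes were detectable throughout. All 29 proximal tubule markers were listed, each above 10 CPM on average, beside 75.1% of all genes. Slc7a13 reached that average through replicate 3 alone. The list took 0.453, 0.937 and 0.668% of the counts, 2.07-fold more in replicate 2 than in replicate 1. Counts of the podocyte list were 9.16, 3.45 and 5.87 times those of the proximal tubule list, and the summed length-scaled levels 4.42, 1.87 and 1.84 times. Per length, the proximal tubule list took 0.63, 1.15 and 1.45% and was highest in replicate 3, whereas without Kap, in a recalculation chosen after seeing the data, it took 0.516, 1.08 and 0.516% and was highest in replicate 2. By counts it took 0.425, 0.918 and 0.438% without Kap. Slc34a1, the sodium-phosphate cotransporter, had 429, 999 and 485 CPM, and Lrp2, the endocytic receptor megalin, 205, 465 and 194 CPM. Pck1, a key enzyme of gluconeogenesis, had 391, 1159 and 117 CPM. In these 3 genes replicate 2 was highest, and it was highest in 25 of the 29, beside 45.3% of all genes. After TMM scaling it was highest in 25, beside 37% of all genes. The other 4, Slc7a13, Kap, Cyp2e1 and Cyp4b1, were highest in replicate 3. The highest library exceeded the lowest by over 2-fold in 24 of the 29 markers, which is 82.8% beside 7.48% of all genes.

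Markers of later nephron segments moved in other ways. Umod, the uromodulin of the thick ascending limb, had 1056, 1172 and 1529.8 CPM, Egf 679.7, 777 and 1065 CPM and Slc12a1, the cotransporter blocked by loop diuretics, 229.5, 356 and 517 CPM, all highest in replicate 3. The list for the loop of Henle took 0.206, 0.242 and 0.323% of the counts. The list for distal and connecting tubule took 0.0485, 0.0387 and 0.0215%, lowest in replicate 3, with Slc12a3, the thiazide-sensitive cotransporter, at 171, 155 and 57.7 CPM and Calb1 at 181, 122 and 49.7 CPM. Collecting duct markers took 0.0129, 0.0146 and 0.00989%, and Aqp2, the vasopressin-regulated water channel, had 31.5, 34.3 and 23.3 CPM.

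Blood and stromal cells contributed little that could be read. Macrophage markers took 0.00541, 0.00861 and 0.00851% of the counts, with Csf1r at 16, 26.1 and 33 CPM, Lyz2 at 12.5, 24.2 and 25.8 CPM and C1qa at 1.59, 3.61 and 1.55 CPM. Of 11 lymphocyte markers 3 were listed, with Ptprc, the common leukocyte antigen, at 11.8, 17.3 and 16.2 CPM. Cd3e, Cd4 and Cd8a are among the 8 without an entry. Of 6 neutrophil markers S100a8 and S100a9 were listed, each below 3 CPM in every library. Hbb-bt, a haemoglobin chain that shares near-identical sequence with other Hbb genes, had 8.62, 16.9 and 14.7 CPM. The fibroblast list was mostly Col1a2, at 206, 194 and 368 CPM, beside Col1a1 at 9.44, 15.9 and 18.8 CPM and Dcn at 3.99, 12.2 and 7.37 CPM.

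The autoantigens of membranous nephropathy, a disease in which antibodies bind proteins on podocytes, spanned a wide range. Htra1 had 795 ± 121 ppm, Thsd7a 159 ± 47.7, Mme (neprilysin) 128 ± 21.2, Pla2r1, the main target in patients, 54.5 ± 6.55 and Sema3b 52.4 ± 16. Pcdh7 had 0.937 ± 0.313 ppm. Nell1 is without an entry.

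The 3 libraries ranked genes alike. Across genes, Pearson's r of log2 CPM was 0.976 between replicates 1 and 2, 0.974 between replicates 1 and 3 and 0.97 between replicates 2 and 3, and Spearman's rho was 0.979, 0.98 and 0.976. Genes are not independent replicates, and these values rest mainly on the spread of levels from gene to gene. All 3 libraries shared 7 of their 10 top genes by CPM, 25 of their 30, 80 of their 100 and 838 of their 1000. The 3 libraries differed by more than counting noise. Chi-square per degree of freedom was 58.1 for replicates 1 and 2, 42 for replicates 1 and 3 and 57.1 for replicates 2 and 3. With 1 library per mouse, differences between animals and between preparations cannot be told apart. The common biological coefficient of variation from edgeR was 0.201. The median SD of log2 CPM was 0.143 in genes of 10 to 100 CPM, where counting alone gives 0.0522, and 0.129 in genes of 100 to 1000 CPM, where counting alone gives 0.0226. The 74 genes above 1000 CPM had a median SD of 0.185, where counting alone gives 0.00778.

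**Figure D4:**
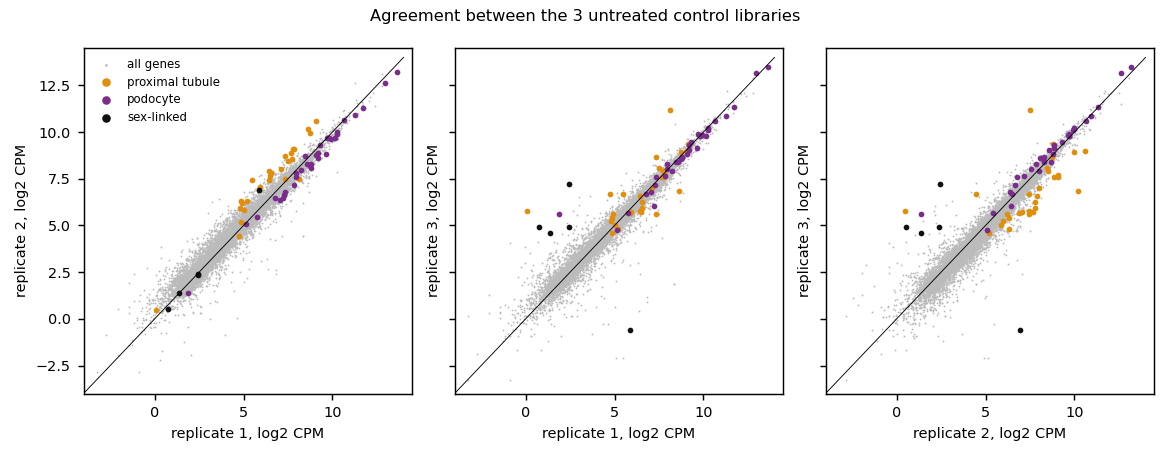
Log2 CPM of each gene in a pair of untreated control libraries, with the line of equality. All genes are grey, proximal tubule markers orange, podocyte markers purple and sex-linked genes black. Proximal tubule markers lie mostly above the line for replicate 2 against replicate 1, and sex-linked genes leave the line where replicate 3 is plotted.

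Among the 10122 genes with a mean of at least 10 CPM, 532 had a highest library over 2-fold above the lowest, 78 over 4-fold and 32 over 8-fold. In 191 of the 532 genes replicate 2 was the high library, farther from the middle value than the third library was. Without that condition on distance, replicate 2 was the highest library in 45.3% of all genes by CPM and in 37% after TMM scaling. Over 4-fold, replicate 3 stood apart most often, high in 20 genes and low in 25 of 78. Between pairs, 300 genes differed by over 2-fold for replicates 1 and 2, 214 for replicates 1 and 3 and 284 for replicates 2 and 3.

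Sex-linked genes divided the libraries. Xist, the RNA transcribed from the inactive X chromosome, had 57.4, 122 and 0.63 CPM. Of the Y-linked genes, Ddx3y had 5.45, 5.34 and 150.5 CPM, Eif2s3y 1.63, 1.4 and 30.1 CPM, Kdm5d 2.53, 2.61 and 23.8 CPM and Uty 5.32, 5.14 and 30.6 CPM. Replicates 1 and 2 were thus high in Xist and low in the 4 Y-linked genes, and replicate 3 the reverse. These 4 genes have relatives on the X chromosome, and how reads shared with them were counted is not given in the sources used here. With 1 library of its kind, the sex of the animal and everything else that sets replicate 3 apart cannot be told apart.

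Several genes moved with replicate 3 among the 20 of largest spread. Slc7a13, an amino acid transporter of the late proximal tubule, had 1.03, 1.36 and 54.3 CPM, Kap 277, 182 and 2304 CPM, and Ces1f, a carboxylesterase, 6.35, 4.33 and 54.7 CPM, and all were highest in replicate 3. R3hdml, a member of the podocyte list, had 3.6, 2.57 and 49.4 CPM. Lowest in replicate 3 were the serine protease inhibitor genes Serpina3n, at 44.3, 29.7 and 0.21 CPM, and Serpina3h, at 33.7, 35.8 and 0.21 CPM, which belong to a family of close copies. Cyp4a14, a fatty acid hydroxylase, had 86.9, 134 and 5.33 CPM, Gsta2, a glutathione transferase, 21, 31.3 and 2.14 CPM, and Bhmt, an enzyme of methionine metabolism, 18.7, 32.7 and 2.31 CPM. Inmt, a methyltransferase, followed another order, with 36, 4.45 and 64.8 CPM, lowest in replicate 2.

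Replicate 1 stood apart in a block of class I major histocompatibility genes on chromosome 17. H2-Q6 had 324, 21.9 and 3.57 CPM, H2-Q7 114, 5.22 and 1.85 CPM and H2-Q5 32.4, 3.93 and 1.55 CPM. H2-Q8 and H2-Q9 carried values close to those of H2-Q6 and H2-Q7 in each library, and since these genes are near-identical copies their counts are uncertain one by one. The classical class I genes H2-K1 and H2-D1 had 239, 142 and 85.3 and 1348, 1475 and 972 CPM, and B2m, their shared light chain, 994, 963 and 557 CPM. All 6 genes of the class I list (H2-K1, H2-D1, B2m and the peptide-loading genes Tap1, Tap2 and Tapbp) were lowest in replicate 3 by CPM, and 5 of the 6 after scaling with TMM factors, beside 29.9% of all genes by CPM and 32.5% after TMM scaling.

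**Figure D5:**
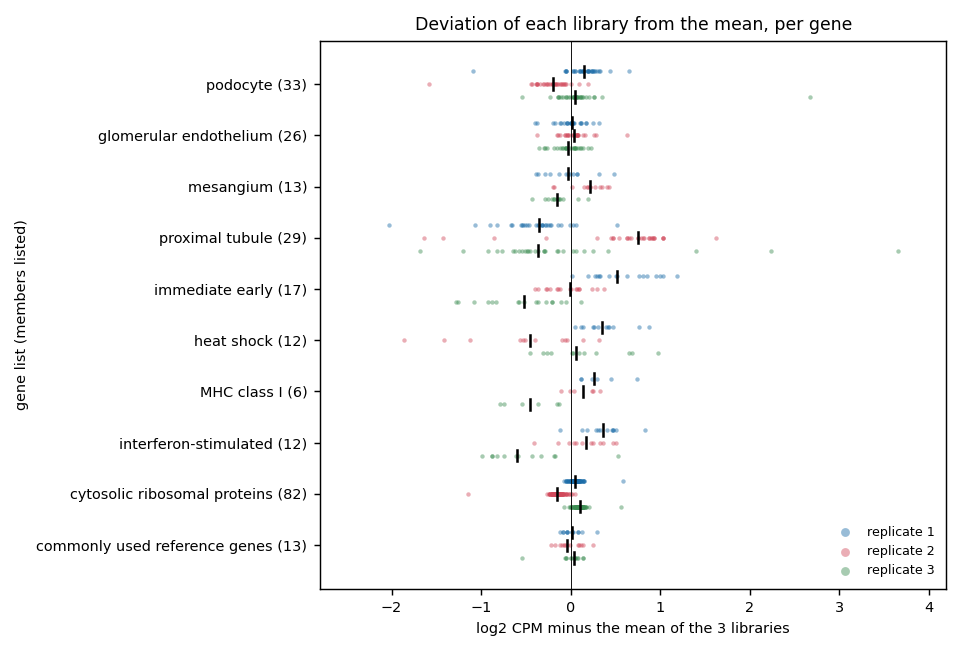
Deviation of each library from the mean of the 3 in log2 CPM for the members of 10 lists, with 1 dot per gene and library and a bar at the median. Proximal tubule genes lie to the right in replicate 2, immediate early genes to the right in replicate 1, and class I and interferon-stimulated genes to the left in replicate 3.

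Whole lists leaned toward 1 library. Podocyte markers were lowest in replicate 2 in 27 of 33 genes by CPM, beside 27% of all genes, with a median deviation of -0.20 on the log2 scale, and in 29 of 33 after TMM scaling, beside 36% of all genes on that scale. Thsd7a had 809, 453 and 572 CPM and Sulf1, a heparan sulfatase, 231, 145 and 201 CPM, and both were lowest in replicate 2. Proximal tubule markers showed a median deviation of 0.75 in the same library. The podocyte share was thus lowest, and the proximal tubule share highest by counts (and per length without Kap), in the same library, and the part of one in the other was not tested. For the endothelial list no library was low or high throughout: replicate 2 was highest in 12 of 26 by CPM, beside 45.3% of all genes, whereas replicate 1 was highest in 13 after TMM scaling, beside 30.5%.

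Immediate early genes, which cells switch on within minutes of a stimulus, were highest in replicate 1 in 16 of 17 listed members, beside 20.6% of all genes, and after TMM scaling in 16, beside 30.5%. Fos had 163, 94 and 32.7 CPM, Junb 118, 74.9 and 25.5 CPM, Nr4a1 132, 48 and 30.4 CPM and Dusp1 418, 204 and 158 CPM. Klf6 was the exception, with 199.8, 179 and 214 CPM. Their share of the counts was 0.289, 0.197 and 0.166%. Heat shock genes were also most often highest in replicate 1, in 7 of 12 (9 after TMM scaling), beside 20.6% of all genes (30.5% after TMM scaling). Replicate 2 was lowest in 8 of the 12 on both scales, beside 27% (36% after TMM scaling). Of the inducible members, Hspa1b had 248, 54.9 and 229.9 CPM and Hspa1a, a near-identical copy, 145, 21.8 and 156 CPM. The co-chaperone Dnajb1 had 132, 44.9 and 157 CPM. Each of these was lowest in replicate 2. The mitochondrial chaperone Hspd1 had 242, 223 and 237 CPM, and the chaperone of the endoplasmic reticulum Hspa5 1678, 1888 and 1107 CPM, highest in replicate 2.

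Interferon-stimulated genes were lowest in replicate 3 in 11 of 12 listed members, beside 29.9% of all genes, and after TMM scaling in 11, beside 32.5%. Ifit1 had 27.9, 16 and 8.52 CPM and Irf7 18.8, 19.8 and 7.72 CPM. Rsad2 was the exception, with 76.9, 62.8 and 121 CPM. Cytosolic ribosomal protein genes were lowest in replicate 2 in 76 of 82 (80 after TMM scaling), beside 27% of all genes (36% after TMM scaling), with a median deviation of -0.15 on the log2 scale, and nuclear-encoded genes of oxidative phosphorylation were highest in the same library in 77 of 94 (68 after TMM scaling), beside 45.3% of all genes (37% after TMM scaling), with a median deviation of 0.11. Proximal tubule cells are rich in mitochondria, and the part of the tubule share in the oxidative phosphorylation values was not tested. Both families moved little in size: their shares of the counts were 2.23, 1.95 and 2.28% and 1.01, 1.15 and 1.04%.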

How the data were processed

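Total RNA of isolated glomeruli was sequenced, and the 3 untreated control libraries were used. The other 9 libraries were not used here. The authors deposited 1 table of estimated counts per gene symbol for each library, not scaled to depth. Between 10.9 and 11.4% of the deposited count values ended in 0.5, and 4 blank values were taken as 0. BWA and mm10 are listed in the submitters' processing notes, with no version or role. The counting tool, annotation, strand handling and any filter on the listed genes were not given in the sources used. Depth per library was 23305198 to 24925846.5 counts, and a count of 3 corresponds to 0.12 to 0.129 CPM.

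CPM were counts divided by the library total. Length-scaled levels used the summed exon length of GENCODE M21 basic genes (GRCm38), matched by symbol for 13417 of 13480 genes. The other 63 held 0.231% of the counts. Log2 CPM used a prior count of 0.5. Counts were rounded for edgeR 4.0.16 (R 4.3.3), which estimated the common dispersion with an intercept only. That step was tested on simulated data. TMM factors and DESeq2 1.42.0 size factors were alternatives. Intervals are 95% Wilson intervals. No test was made. Other tools were Python 3.11.15, numpy 2.4.6, pandas 2.3.3 and scipy 1.17.1.

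The libraries, marker lists and functional lists were chosen with earlier results of these data known. Genes were named by rule: the 30 of highest mean CPM, the 20 of highest length-scaled level, in each list the 4 highest per length and the 2 of largest SD with a mean of at least 1 CPM, every slit diaphragm, collagen IV and laminin gene, Dach1, and the 20 of largest SD of log2 CPM with a mean of at least 10 CPM. Other named members of the lists were chosen after their values were seen. The 20 genes in 10 groups with identical values in each library, at a mean count of at least 100, are uncertain one by one. Some members of the lists are counted in the totals and not reported by name here.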

Additional observations from a re-analysis of the deposited data

How the results depend on the processing

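The 22 summary values above were recomputed under each alternative, which gave 94 values besides those that leave out 1 library. Of these, 79 stayed within a limit and 15 moved by more. The limit was 1 SD over the 3 libraries, or 1.5 times for counts of genes. For correlations it was 1 SD over the 3 pairs of libraries. For the biological coefficient of variation it was 1 SD over the 3 estimates that leave out 1 library. Scaled per exon length, the 100 top genes took 20.7% and the 1000 top genes 54.3% of the total, 18 of the 30 top genes were shared with the ranking by CPM, and the shares were 2.54% for the podocyte list, 1.83% for the endothelial list and 1.08% for the proximal tubule list. Without its most abundant member, the podocyte list held 2.65%, the endothelial list 1.52% and the mesangial list 0.335% of the counts. In genes of at least 10 CPM, mean Pearson's r was 0.963, mean Spearman's rho 0.966 and the biological coefficient of variation 0.188. With exons of the full annotation the ratio of Col4a3 to Col4a4 was 2.59 and that of Lamb2 to Lamb1 4.54, and with the longest transcript that of Kdr to Flt1 was 3.87. Both length alternatives were chosen after seeing the data. TMM and DESeq2 factors moved none of the summary values by more than these limits.

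Leaving out each library in turn left 60 of 66 values within the same limits. For the list shares and the ratios between genes this was fixed in advance, since the mean of 2 of 3 values always lies within 1 SD of the mean of all 3. Pearson's r then ran between 0.97021 and 0.97568, Spearman's rho between 0.97597 and 0.97989, the biological coefficient of variation between 0.187 and 0.207, and the number of genes of at least 10 CPM that differed by over 2-fold between 214 and 300, since 2 libraries span less than 3. With 2 libraries left, these correlations and gene numbers are those of the 3 pairs given above. For single genes, 505 of 525 alternative values stayed within the limits. All 735 values without 1 library did so too, which was fixed in advance for the same reason as for the list shares.

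No paired analysis was possible because the result comes from no test. With 3 mice of which 1 differed in its sex-linked genes, an SD rests on few animals, and genes below about 10 CPM were the least precise.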

Other observations

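The 25 Hox genes listed took 0.0478, 0.047 and 0.0467% of the counts. Hoxc6 and Hoxc8 had the highest length-scaled levels, with 112 ± 21.8 and 97.1 ± 30.9 ppm, followed by Hoxa10 with 46.3 ± 2.37 ppm and Hoxd9 with 40.7 ± 6.27 ppm. Hoxc8 had 75.3, 39.6 and 72.9 CPM and was lowest in replicate 2. Of the 25, 4 ranged over 2-fold, which is 16.0% beside 7.48% of all genes. Only 14 of the 25 averaged at least 10 CPM. Such a range was seen in 13.8% of genes at 1 to 10 CPM and in 5.78% at 10 to 100 CPM. With these shares, 4 of 25 does not set the list apart. Among 11 keratins, Krt7 and Krt80 led per length with 48.8 ± 4.6 and 42.3 ± 17.3 ppm, and Krt80 was highest in replicate 1, with 95.7, 46.4 and 54.3 CPM.

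Genes often used as references for quantitative PCR spread unequally between these 3 libraries. Tbp had 18.1, 18.5 and 19.1 CPM, Ywhaz 590.3, 559 and 603 CPM and Hprt 76.6, 77.1 and 83.4 CPM, and the highest library exceeded the lowest by 1.06-fold, 1.08-fold and 1.09-fold. Actb and B2m spread by 1.28-fold and 1.79-fold.

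Several clock genes differed between libraries. Nr1d1, a repressor of the clock, had 360.2, 211 and 158 CPM, Cry2 51.1, 30.8 and 18 CPM, Per2 36.4, 18.9 and 16.1 CPM and Dbp 39.3, 48.6 and 19.3 CPM, whereas Clock had 165, 169 and 189.8 CPM. Of 15 listed clock genes 5 ranged over 2-fold, which is 33.3% beside 7.48% of all genes.

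Mki67, Top2a and Cdk1, genes of dividing cells, lay below the median of all genes per length: Mki67 had 2.24 ± 0.824 ppm, Top2a 6.58 ± 1.26 ppm and Cdk1 3.79 ± 0.635 ppm, beside 24.8 ppm. Pcna, which also serves DNA repair, had 166 ± 9.79 ppm. Of the class II genes of antigen presentation, Cd74 had 72.7 ± 21.4 ppm. Replicate 2 was highest in 5 of the 7 class II genes by CPM and after TMM scaling, beside 45.3% and 37% of all genes. H2-Eb1, at 5.96, 1.24 and 1.09 CPM, was 1 of the 2 that were highest in replicate 1.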
